A study of Mus musculus with 2 samples.

Results

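Glycolysis and the response to low oxygen were followed through 35 genes in the facial prominences of mouse embryos at 11.5 days. The 35 genes were chosen by symbol: 2 glucose transporters, 17 enzymes from hexokinase to lactate dehydrogenase, 2 enzymes that set fructose 2,6-bisphosphate, 1 pyruvate dehydrogenase kinase, 2 lactate transporters, and 11 genes of the hypoxia-inducible factor (HIF), its oxygen sensors and its targets. All 35 were matched by identifier among the 43346 genes quantified. The tissue came from strain B6NCrl embryos of mixed sex with no mutation or treatment named in the labels, and total RNA longer than 200 nt was sequenced from 10 ng with RNA spike-ins added. There were 2 libraries in 1 group, which come from separate pools, 109 embryos in the case of library 1 and 88 in that of library 2. The study set no condition against another, so the values below describe 1 tissue at 1 age and the difference between its 2 pools, with no test between groups and no p-value.

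Glycolysis splits glucose into pyruvate in the cytosol and yields ATP without oxygen, and lactate dehydrogenase then turns pyruvate into lactate, which frees NAD+ for further rounds. Many steps have paralogous enzymes that differ in regulation and in the tissues that use them. HIF is a pair of subunits, an oxygen-labile alpha subunit and the stable partner Arnt. With oxygen present, prolyl hydroxylases mark the alpha subunit for the Vhl ubiquitin ligase, which leads to its destruction, and with little oxygen HIF accumulates and raises transcription of glucose transporters, glycolytic enzymes, Vegfa and others. Since HIF alpha is controlled mainly at the protein, RNA levels do not measure its activity.

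The depth was 30849058 expected counts in library 1, with 28627217 on genes, and 31600302 in library 2, with 29281440 on genes. The unit of level is TPM, the abundance of transcripts per length scaled to a fixed total, which allows different genes to be compared. Pairs of values are for library 1 and then library 2, and means carry the SD over both (n = 2). All 10 marker genes of facial mesenchyme and all 8 of surface epithelium were detected, meaning 1 TPM or more in both libraries. Markers of other cells were detected too: 10 of 10 for neurons, 8 of 8 for endothelium and 8 of 8 for erythroid cells, while 7 of 8 skeletal muscle, 6 of 7 heart and 5 of 6 lens and pigment markers reached that level. In such mixed tissue, fewer cells of a type and less RNA per cell cannot be told apart.

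Of the 35 genes, 34 were detected, and the exception was the carbonic anhydrase gene Car9. The share among all 21474 protein-coding genes was 58.5%. Their median level was 27.7 TPM, against 3.45 TPM over all protein-coding genes and 17.98 TPM over those detected. At least 100 TPM was reached by 11 of the 35 (31.4%), against 6.85% of protein-coding genes and 11.7% of those detected. The 17 enzymes had a median of 315 TPM and ranged from 2.79 to 1839 TPM, while the 11 genes of the HIF system had a median of 13.5 TPM. Together the 35 genes took 0.960% of the TPM of library 1 and 0.878% of that of library 2, and the 17 enzymes alone took 0.904% and 0.825%.

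**Figure D1:**
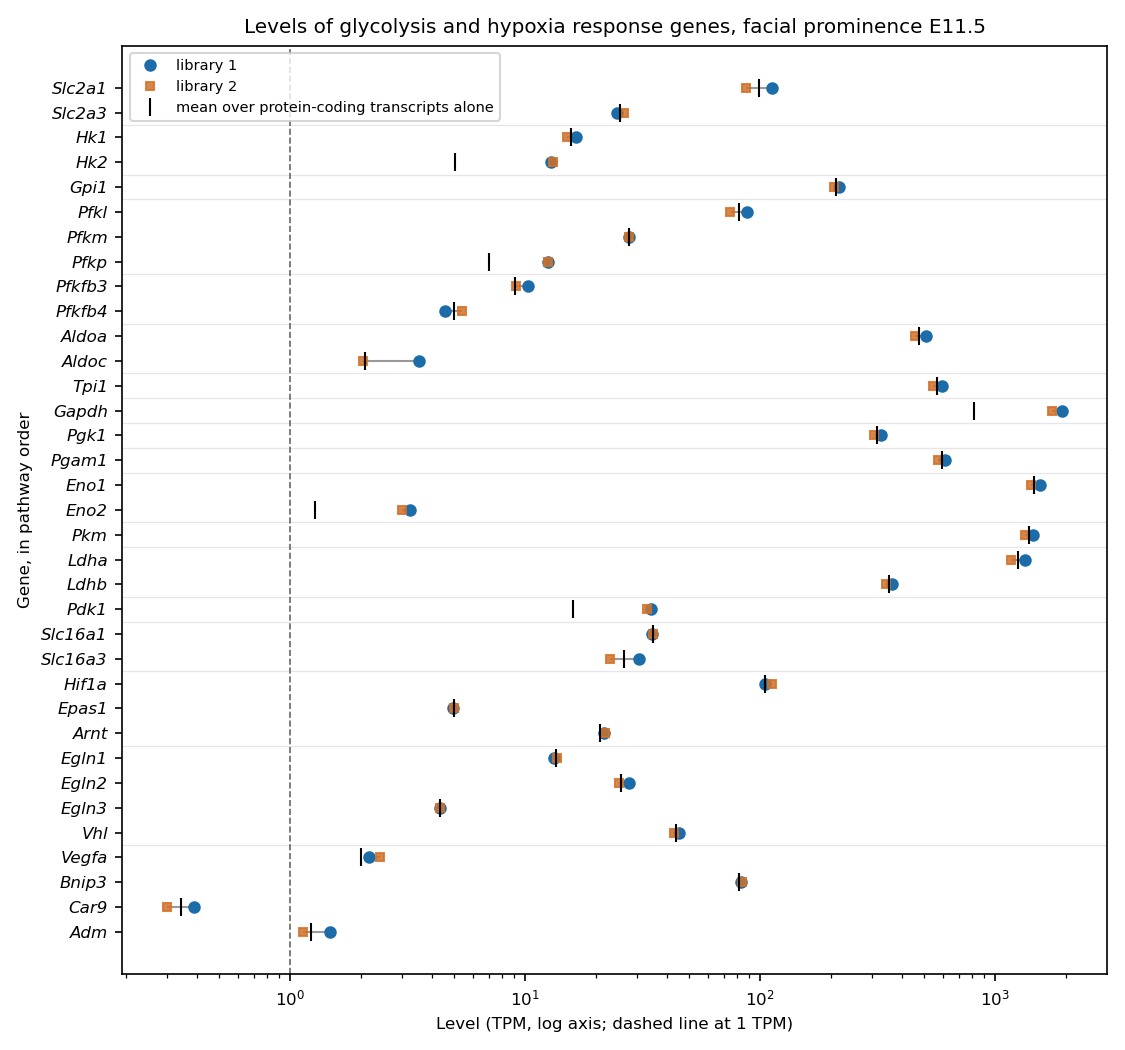
Level of each of the 35 genes in TPM on a log axis, in pathway order from glucose uptake to hypoxia targets, with a circle for library 1, a square for library 2 and a black bar for the mean over protein-coding transcripts alone. The enzymes from aldolase to lactate dehydrogenase reach over 300 TPM in at least 1 gene per step, and Car9 is the only gene below the dashed line at 1 TPM.

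Glucose enters cells through facilitative transporters, of which Slc2a1 encodes GLUT1, the form in most embryonic tissues, and Slc2a3 encodes GLUT3, a form of high affinity best known from neurons. Slc2a1 stood at 112 TPM in library 1 and 86.9 TPM in library 2 (99.4 ± 17.8). Slc2a3 stood at 24.7 and 26.4 TPM (25.5 ± 1.17). Slc2a1 was thus the higher of the pair in both libraries, by 4.53-fold in library 1 and 3.30-fold in library 2, and its own spread was the wider.

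Hexokinases phosphorylate glucose and so hold it in the cell, Hk1 as the widely used form and Hk2 as the form that insulin and HIF are known to raise. Hk1 had 16.4 and 15.1 TPM in libraries 1 and 2, and Hk2 had 12.9 and 13.1 TPM. These near-equal levels did not hold for transcripts that encode the enzyme. Most of the Hk2 TPM, 62.9% and 59.7%, was assigned to a short non-coding transcript of 594 nt, which held only 13.4% and 11.9% of the reads of Hk2. Over protein-coding transcripts alone Hk2 stood at 5.03 ± 0.346 TPM, and the ratio of Hk1 to Hk2 went from 1.21 ± 0.0850 to 3.15 ± 0.404. The hexokinase step summed to 28.7 ± 0.806 TPM, the lowest sum of any step from uptake to lactate. Only the fructose 2,6-bisphosphate enzymes, which are not on the path itself, summed lower at 14.7 ± 0.240 TPM.

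Glucose phosphate isomerase, the product of Gpi1, makes fructose 6-phosphate and stood at 217 and 206 TPM. Phosphofructokinase commits that sugar to glycolysis, and its liver-type, muscle-type and platelet-type subunits are encoded by Pfkl, Pfkm and Pfkp. Pfkl was the highest, at 88.2 TPM in library 1 and 74.4 TPM in library 2. Pfkm followed at 27.6 and 27.8 TPM, and Pfkp at 12.5 TPM in both. The levels of the 3 subunits did not overlap, and Pfkl exceeded Pfkm by 2.94 ± 0.368-fold and Pfkp by 6.49 ± 0.784-fold. Transcripts that encode Pfkp took only 49.96% and 61.8% of its TPM, so over protein-coding transcripts Pfkp stood at 7.0 ± 1.05 TPM and Pfkl exceeded it by 11.8 ± 3.17-fold. Pfkfb3 and Pfkfb4 encode enzymes that make and break fructose 2,6-bisphosphate, the activator of phosphofructokinase. Pfkfb3 had 10.3 and 9.12 TPM, and Pfkfb4 had 4.54 and 5.39 TPM, so that Pfkfb3 was higher in both libraries by 1.98 ± 0.409-fold.

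From aldolase to pyruvate kinase each step had 1 abundant gene. Aldoa, the aldolase of muscle and of most embryonic tissue, reached 507 TPM in library 1 and 457 TPM in library 2. Aldoc, the form known from brain, reached only 3.53 and 2.04 TPM. The triose phosphate isomerase gene Tpi1, which interconverts the products of aldolase, stood at 594 and 542 TPM. Gapdh, the dehydrogenase that makes NADH and often serves as a reference gene, had the highest level of the 35 at 1928 and 1749 TPM, rank 29 among protein-coding genes. Its level also rested on a short non-coding transcript. That transcript, 483 nt long, took 55.4% and 55.2% of the Gapdh TPM on 26.9% and 26.6% of its reads. Over protein-coding transcripts alone Gapdh stood at 812 ± 53.5 TPM, below Eno1, Pkm and Ldha.

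The later steps yield the ATP. Pgk1, the phosphoglycerate kinase on the X chromosome, stood at 325 and 305 TPM, and the mutase gene Pgam1 at 611 and 572 TPM. The enolase Eno1 reached 1552 and 1417 TPM, rank 41, while Eno2, the enolase of mature neurons, had 3.24 and 2.99 TPM. A retained-intron transcript took 38.5% and 44.9% of the Eno2 TPM, and its protein-coding transcripts summed to 1.28 ± 0.382 TPM. Neuronal markers were present in the tissue, at a summed 737 TPM in library 1 and 611 TPM in library 2 over 10 genes. Their relation to the low level of Eno2 was not tested. Pyruvate kinase, the product of Pkm, stood at 1448 and 1342 TPM, rank 45.

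Lactate dehydrogenase is a tetramer of A subunits, from Ldha, and B subunits, from Ldhb. Ldha stood at 1333 TPM in library 1 and 1172 TPM in library 2, rank 53. Ldhb stood at 365 and 343 TPM. Both subunits were abundant, with Ldha 3.53 ± 0.168-fold above Ldhb. Lactate leaves cells through monocarboxylate transporters, Slc16a1 being the general form and Slc16a3 the form known for export from glycolytic cells. Slc16a1 had 34.7 and 35.1 TPM and Slc16a3 had 30.6 and 22.9 TPM, a ratio of 1.33 ± 0.278. The 2 genes stood far below the enzymes, at 61.6 ± 5.13 TPM together against 1607 ± 129 TPM for lactate dehydrogenase. Pdk1, whose kinase inhibits the entry of pyruvate into mitochondria, had 34.2 and 33.1 TPM. Protein-coding transcripts took 43.9% and 51.3% of that, or 16 ± 1.40 TPM.

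Set side by side, 8 of the 12 paralog pairs examined differed at least 2-fold in both libraries. The widest was Eno1 over Eno2, at 477 ± 3.61-fold, followed by Aldoa over Aldoc at 184 ± 56.8-fold. Over protein-coding transcripts alone, Eno1 exceeded Eno2 by 1515-fold in library 1 and 905-fold in library 2, and Aldoa exceeded Aldoc by 284 ± 169-fold, so these ratios are known only roughly. The Aldoc term rests on 113 and 56.0 counts, and the ratio was 144 in library 1 and 224 in library 2. At the other end stood Hk1 with Hk2 and Slc16a1 with Slc16a3, which differed by less than 2-fold in both libraries over all transcripts. Over protein-coding transcripts Hk1 with Hk2 passed 2-fold in both, at 3.43 and 2.86, and the number of such pairs was 9. The pairs Pfkfb3 with Pfkfb4 and Egln1 with Egln2 fell on either side of 2-fold between the libraries.

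Among 19 further isozymes and side enzymes of glycolysis, 12 were detected, near the share of 58.5% among all protein-coding genes. The same share is the background for the further lists below. The highest were the phosphoglucomutase gene Pgm1 at 42.2 ± 2.18 TPM, the ADP-dependent glucokinase gene Adpgk at 37.7 ± 1.99 TPM and the bisphosphoglycerate mutase gene Bpgm, whose product red cells use to tune haemoglobin, at 36.0 ± 1.83 TPM. The muscle enolase gene Eno3, at 26.7 ± 5.20 TPM, exceeded the neuronal Eno2 by 8.54 ± 1.18-fold, and by 22.5 ± 10.8-fold over protein-coding transcripts. The paralogs below 1 TPM in both libraries included the hexokinases Hk3 (0.265 ± 0.134) and Hkdc1 (0.200 ± 0.156), the sperm Gapdhs (0.140 ± 0.0566) and the lactate dehydrogenase Ldhc (0.0800 ± 0.0566). Ldhd, a D-lactate dehydrogenase gene and not a paralog of Ldha or Ldhb, was also below that level (0.0950 ± 0.106), on 12.3 and 1 counts. No count fell on the testis gene Pgk2, which allows up to 0.0980 TPM in library 1 and 0.0963 TPM in library 2 at 3 counts.

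Of 20 further transporters and genes of pyruvate entry, 16 were detected. The highest was Bsg, whose product basigin carries the lactate transporters to the cell surface, at 490 ± 21.6 TPM. Pdhb, a subunit of pyruvate dehydrogenase, stood at 161 ± 6.56 TPM, and Mpc2, a subunit of the mitochondrial pyruvate carrier, at 90.3 ± 4.16 TPM, of which 65.2 TPM was on protein-coding transcripts. Among the kinases that inhibit pyruvate dehydrogenase, Pdk3 exceeded Pdk1 by 1.75 ± 0.0618-fold over all transcripts and by 3.67 ± 0.238-fold over protein-coding ones, and Pdk4 stayed below 1 TPM at 0.730 ± 0.0424. The glucose transporter of liver and pancreas, Slc2a2, was at 0.02 ± 0.0283 TPM, and the lactate transporter of retinal epithelium, Slc16a8, at 0.100 ± 0.0990 TPM.

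Pyruvate kinase comes in M1 and M2 forms that differ by 1 of 2 neighbouring exons of Pkm, which are used in turn and never together. M2 is the form of embryonic and proliferating cells and can be held in a less active state, while M1, known from muscle and brain, is constantly active. The exons are shown because they are the coding difference between the forms. The M1 exon lies at chr9:59675029-59675195 and the M2 exon at chr9:59675568-59675734 of mm10, both on the plus strand, and sequences were read from GENCODE M21. Capitals mark the bases that differ between them.
Pkm M1 exon: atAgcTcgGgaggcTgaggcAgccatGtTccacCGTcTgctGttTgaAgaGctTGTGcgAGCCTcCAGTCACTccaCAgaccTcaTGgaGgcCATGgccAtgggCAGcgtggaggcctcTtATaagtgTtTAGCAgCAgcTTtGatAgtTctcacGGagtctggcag
Pkm M2 exon: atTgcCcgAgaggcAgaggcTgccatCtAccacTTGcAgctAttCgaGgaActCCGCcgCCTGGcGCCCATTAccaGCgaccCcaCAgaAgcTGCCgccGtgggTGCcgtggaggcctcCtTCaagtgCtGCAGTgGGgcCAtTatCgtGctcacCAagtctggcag
Both are 167 nt long, differ at 64 positions (61.7% identity) and lie 372 bases apart. In library 1 the M2 transcript took 95.73% of the Pkm TPM, and in library 2 it took 96.22%, or 96.0 ± 0.346%. M1 took the remaining 4.27% and 3.78%, on 2957 and 2471 counts. The M1 transcript is 2432 nt long in the authors' files and 2041 nt in M21, with the same identifier, so its exons were read from an annotation that differs in part. The posterior SD of the M1 count, which the authors deposited as the error of assigning reads, was 139 reads in library 1 and 124 in library 2. The M1 share was therefore above 0 by far more than the error of assignment in both libraries. The level of M1 alone, 61.8 and 50.8 TPM, exceeded that of the whole Hk1 or Hk2 gene. Skeletal muscle markers summed to 110 TPM in library 1 and 180 TPM in library 2 and neuronal markers to 737 and 611 TPM, and their part in the M1 share was not tested.

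Vegfa, the growth factor that draws blood vessels into tissue, is spliced to forms that bind heparan sulphate through the parts encoded by exons 6 and 7, and a freely diffusing form that skips both. The gene was low, at 2.17 and 2.42 TPM on 126 and 144 counts. Transcripts that skip exons 6 and 7 in GENCODE M21 took 66.05% of its TPM in library 1 and 72.24% in library 2, the transcript with exon 7 alone took 23.1% and 14.1%, and retained-intron transcripts took 10.8% and 13.7%. Transcripts that hold both exons, and those with exon 6 alone, were listed at 0. By these percentages the order of the classes was the same in both libraries, but the shares are uncertain. Most of the skipping class came from a transcript that is 3324 nt long in the authors' files and 975 nt in M21, so its exons in the authors' annotation could not be read. Its posterior SD was 24.4 of 61.0 counts in library 1 and 21.5 of 116 counts in library 2. From the posterior mean TPM the skipping class took 49.3%, retained-intron transcripts, at 24.1% and 24.2%, stood above the transcript with exon 7 alone, at 16.4% and 8.62%, and transcripts with both exons took 7.12% and 10.5%. Only the first place of the skipping class held under both estimates.

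**Figure D2:**
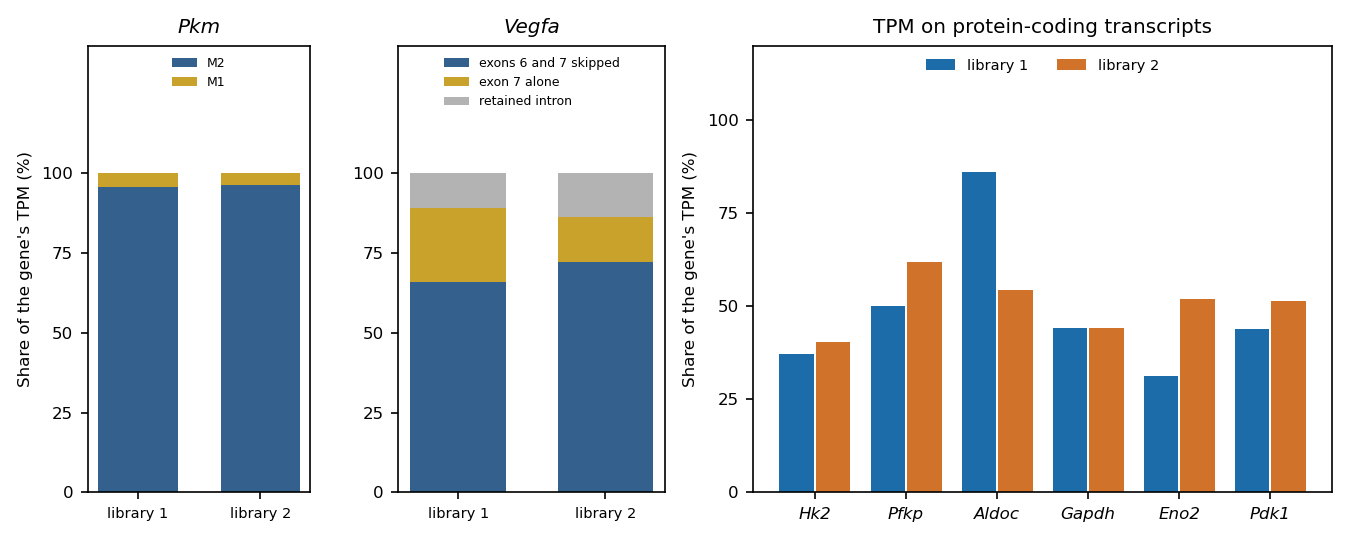
Share of each gene's TPM, in percent, for the transcript classes of Pkm (left) and Vegfa (middle) in each library, and the share on protein-coding transcripts for the 6 listed genes where it is lowest (right). M2 takes 95.73% and 96.22% of Pkm, and Gapdh, Hk2, Pfkp, Eno2 and Pdk1 have under 80% of their TPM on protein-coding transcripts in both libraries.

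In most other genes the same transcript led in both libraries, though often with only part of the TPM. The counts that follow describe the listed genes alone, with no share over all genes beside them. Of the 29 genes with at least 2 annotated transcripts, 28 had the same top transcript in both libraries, and in 13 it took 95% or more in both. The exception was Aldoc, where a protein-coding transcript led with 76.7% in library 1, on 88.8 counts. In library 2 a non-coding transcript led with 45.6%, on only 11.8 counts, while the protein-coding transcript held 26.6 counts there. For Hif1a, 69.0% and 71.8% fell on the transcript with the longer coding sequence of 2508 nt, and 26.8% and 25.1% on a transcript with another first exon and a coding sequence of 2430 nt.

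The alpha subunits of HIF differed widely. Hif1a, the subunit found in most tissues, had 105 TPM in library 1 and 112 TPM in library 2. Epas1, which encodes HIF-2 alpha and is known from endothelium, had 4.93 and 5.00 TPM, while all 8 endothelial markers were detected at a summed 214 and 185 TPM. Hif1a exceeded Epas1 by 21.9 ± 0.773-fold. The partner Arnt stood at 21.6 and 21.97 TPM, below Hif1a in both libraries. In the list of 11 further genes of the system all 11 were detected, with the Vhl ligase subunits highest: Elob at 748 ± 40.4 TPM, Rbx1 at 230.2 ± 5.00 TPM and Eloc at 227 ± 7.11 TPM.

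The prolyl hydroxylases that sense oxygen are encoded by Egln1, the main sensor in most cells, Egln2 and the HIF-inducible Egln3. Egln1 stood at 13.3 and 13.7 TPM in libraries 1 and 2. Egln2 stood at 27.6 and 25.1 TPM, and Egln3 at 4.36 TPM in both. The order Egln2, Egln1, Egln3 held in both libraries with no overlap, with Egln2 at 1.95 ± 0.172-fold of Egln1 per length, and Egln1 at 3.09 ± 0.0633-fold of Egln3. Vhl, the substrate receptor of the ligase, had 45.2 and 42.8 TPM, above each hydroxylase.

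The named targets of HIF spanned over 2 orders of magnitude. Bnip3, which marks mitochondria for removal and is strongly raised by hypoxia in many cells, had 82.9 TPM in library 1 and 83.4 TPM in library 2. Vegfa stood at 2.30 ± 0.177 TPM and Adm, the vasodilator adrenomedullin, at 1.48 and 1.14 TPM on 39.0 and 27.0 counts. Car9, a membrane carbonic anhydrase widely used as a marker of hypoxic tissue, had 0.390 and 0.300 TPM on 15.3 and 12.2 counts. Car9 was below the 1 TPM level in both libraries, although its posterior mean TPM was 1.27. Among 30 further hypoxia targets 26 were detected, and the highest were the cytokine gene Mif at 1615 ± 190 TPM, the mitophagy receptor Bnip3l at 341 ± 20.6 TPM, which red cell precursors use to clear mitochondria, and Fam162a at 225 ± 0.410 TPM. The level of Bnip3l rested largely on non-coding transcripts. Over protein-coding transcripts it stood at 81.9 ± 1.89 TPM, below Fam162a, and its ratio to its paralog Bnip3 was 1.01 ± 0.0180, against 4.10 ± 0.264 over all transcripts. Erythroid markers were abundant at a summed 13057 and 11979 TPM, and their part in the level of Bnip3l was not tested. Those below 1 TPM in both libraries included Epo (0.590 ± 0.170), the hormone of red cell production, Nos2 (0.560 ± 0.269) and Stc2 (0.540 ± 0.0141).

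HIF binds DNA at a core of ACGTG or GCGTG, and these letters were searched on both strands in the 250 bases before each RefSeq start, with a palindromic CACGTG, the E-box that other factors such as Myc and Usf also bind, counting on each strand. Promoters were in the table for 33 of the genes, 48 in all, and Slc2a3 and Epas1 had no entry. Either motif was present in 38 of the 48 (79.2%), against 38.6% of all 32851 promoters and 55.7% of promoters of detected protein-coding genes. ACGTG was in 43.8% of the 48, against 16.6% of all and 21.3% of those of detected genes, and GCGTG in 54.2%, against 28.2% and 44.6%. These shares describe letters and not sites of binding. Both motifs hold the letters CG, and the shares were not adjusted for the base composition of the promoters. Promoters of the same gene can overlap. Ldha, Pgk1 and Bnip3 are shown as an abundant enzyme, an enzyme of intermediate level and a target, chosen with their matches to ACGTG known. They are from RefSeq on GRCm38.p6, printed in the direction of the gene, with the motifs in capitals. They lie at chr7:46845554-46845803 (plus strand), chrX:106186850-106187099 (plus strand) and chr7:138909507-138909756 (minus strand).
Ldha promoter: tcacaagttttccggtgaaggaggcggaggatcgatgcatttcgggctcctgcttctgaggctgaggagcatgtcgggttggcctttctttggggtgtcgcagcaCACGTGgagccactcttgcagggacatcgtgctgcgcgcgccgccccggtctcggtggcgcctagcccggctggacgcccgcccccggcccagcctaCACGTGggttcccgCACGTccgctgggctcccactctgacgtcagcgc
Pgk1 promoter: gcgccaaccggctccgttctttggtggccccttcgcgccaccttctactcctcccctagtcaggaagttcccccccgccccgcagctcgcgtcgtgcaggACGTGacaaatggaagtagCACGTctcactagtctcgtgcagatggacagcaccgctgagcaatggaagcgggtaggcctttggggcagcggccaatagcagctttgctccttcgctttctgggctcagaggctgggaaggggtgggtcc
Bnip3 promoter: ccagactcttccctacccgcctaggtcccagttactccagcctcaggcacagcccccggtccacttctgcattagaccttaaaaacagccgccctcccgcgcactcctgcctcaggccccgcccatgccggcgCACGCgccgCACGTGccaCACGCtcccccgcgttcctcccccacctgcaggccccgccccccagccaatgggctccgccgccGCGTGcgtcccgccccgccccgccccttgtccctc
The Ldha promoter shown held 5 matches to ACGTG, 4 of them in 2 E-boxes read on both strands. A second RefSeq promoter of Ldha, at chr7:46846832-46847081, held 0 matches to ACGTG and 1 to GCGTG. The Pgk1 promoter held 2 matches to ACGTG, on opposite strands. The Bnip3 promoter held 2 matches to ACGTG, both in 1 E-box, and 3 to GCGTG.

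The 2 pools differed little in these genes. Ratios of library 2 to library 1 were taken on counts scaled by TMM, with an exact 95% Clopper-Pearson interval that covers counting error only. Of the 34 genes with at least 50 counts over both libraries and a mean of 1 TPM, 4 were higher in library 1 by at least 25% and 0 were higher in library 2 by at least 25%. Among all 13739 genes past the same filter, 8.82% were that much higher in library 1 and 6.01% in library 2, 14.8% in all, so the share among the 34 was near the background. The 4 genes were Aldoc, with a ratio of 0.496 (interval 0.354 to 0.690), Adm, with 0.693 (0.408 to 1.16), Slc2a1, with 0.794 (0.763 to 0.825), and Slc16a3, with 0.799 (0.734 to 0.869). The interval of Adm includes equal levels. The highest ratio was that of Pfkfb4, at 1.21 (1.04 to 1.42). Slc2a1 lay outside the central 95% of genes of 30 to 100 TPM, whose log2 ratios ran from -0.24 to 0.28, at a log2 ratio of -0.33. By its definition such a range leaves some genes of any level outside. Aldoc, at -1.01, Adm, at -0.53, and Slc16a3, at -0.32, lay within the ranges of their levels.

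**Figure D3:**
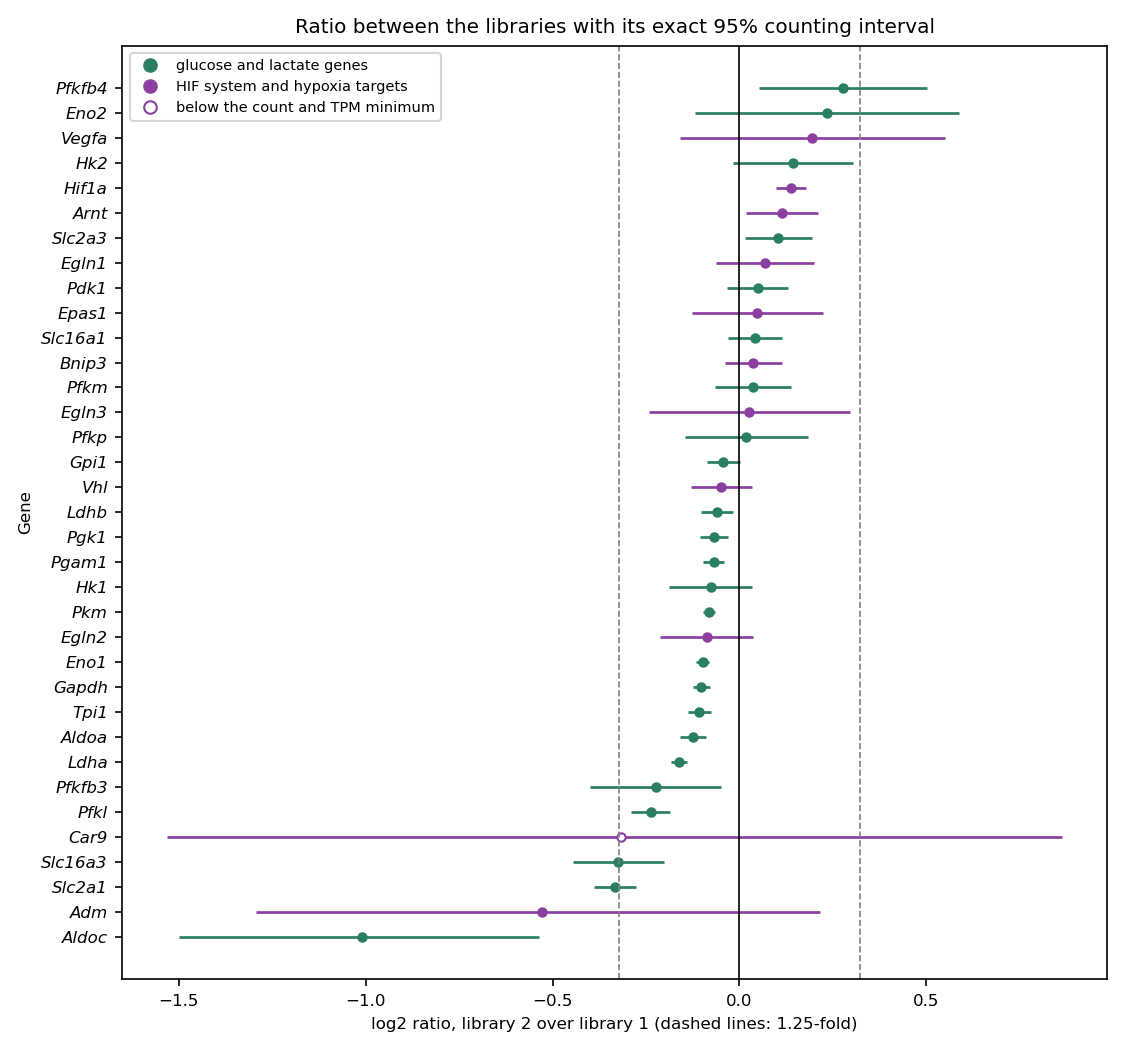
Ratio of library 2 to library 1 for each of the 35 genes on a log2 axis, ordered by its value, with bars for the exact 95% counting interval and dashed lines where a library is 25% above the other. Aldoc, Adm, Slc2a1 and Slc16a3 lie at or past the lower line, and Car9, drawn open, has too few counts for the rule.

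The abundant enzymes differed between the pools in 1 direction. All 10 genes with a mean of 200 TPM or more, a level chosen after the values were seen, had a ratio below 1. The share below 1 was 38.1% among all 734 genes of that level and 48.4% among all genes past the filter. The differences were small, from a log2 ratio of -0.16 for Ldha to -0.04 for Gpi1. Ldha was higher in library 1 by 1.12-fold (interval 1.10 to 1.13) and Gpi1 by 1.03-fold (0.999 to 1.06). Gpi1 was the only one of the 10 whose interval included 1, and the interval excluded 1 in 501 of all 734 genes of that level. Each of the 10 lay within the central 95% of genes of its level, which ran from -0.18 to 0.25 between 100 and 300 TPM, from -0.16 to 0.22 between 300 and 1000 TPM and from -0.19 to 0.24 above. The 17 enzymes include these 10, and 13 of the 17 had a ratio below 1 (14 by ratios of TPM), with a median log2 ratio of -0.08. Among the enzymes of lower level, Hk1, Pfkl and Aldoc were below 1, and Hk2, Pfkm, Pfkp and Eno2 were above. Over the 10 detected genes of the HIF system 3 were below 1 and 7 above, with a median of 0.04. Hif1a had a ratio of 1.10 (1.07 to 1.13). With 1 library from each pool, a difference between embryo pools, dissections and library preparations cannot be told apart.

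**Figure D4:**
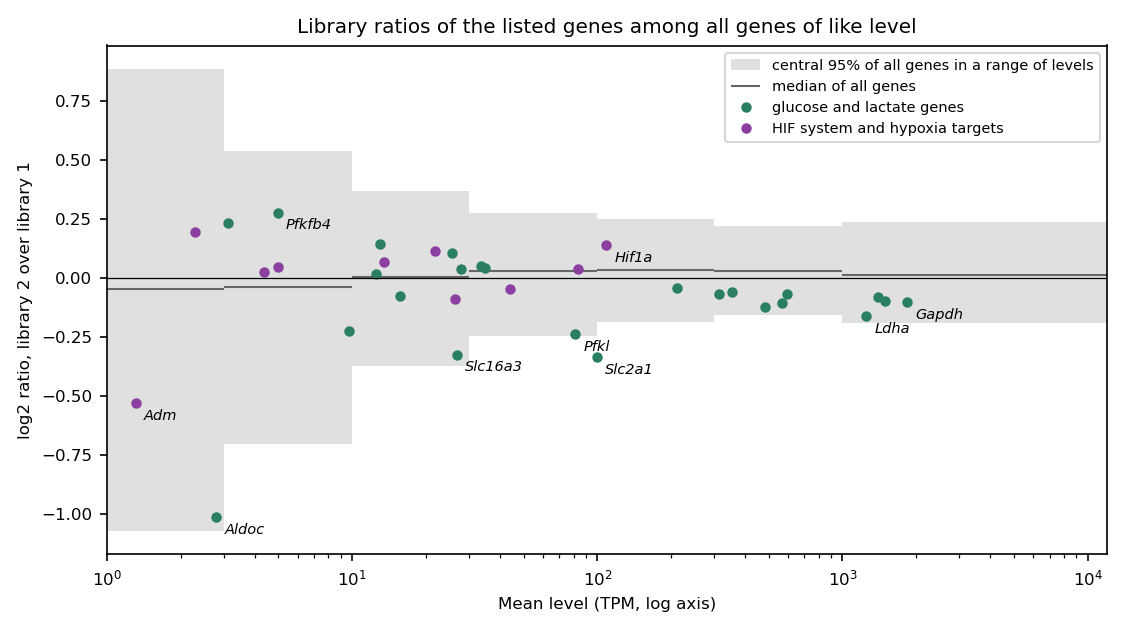
Log2 ratio of library 2 to library 1 against the mean level in TPM on a log axis, for the 34 listed genes past the filter, over grey blocks for the central 95% of all genes in 7 ranges of level and lines for their medians. All 10 genes at 200 TPM or more lie below 0 and inside the grey blocks, and Slc2a1 lies below its block.

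Marker genes of several cell types differed between the pools as well. Neuronal markers were lower in library 2 in 10 of 10 genes, with a median log2 ratio of -0.23, and erythroid markers in 7 of 8 (-0.14), endothelial markers in 6 of 8 (-0.17) and epithelial markers in 6 of 8 (-0.09). Lens and pigment markers summed to 202 TPM in library 1 and 49.3 TPM in library 2. Markers of facial mesenchyme summed to 829 and 870 TPM, with 7 of 10 higher in library 2 and 3 lower (median 0.21). Their sum joins genes that moved in opposite directions: Barx1 went from 56.7 to 104.9 TPM, Msx1 from 277.8 to 248.3 TPM and Alx1 from 140.7 to 120.7 TPM. Skeletal muscle markers were higher in library 2 in 7 of 7 genes past the filter and heart markers in 7 of 7, summing to 25.2 TPM in library 1 and 89.4 TPM in library 2 for heart. Genes that dissection can induce summed to 154 and 147 TPM, with a median log2 ratio of -0.16. The part of these shifts in the lower enzyme levels of library 2 was not tested.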

How the data were processed

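The authors quantified each library with the GENCODE M4 models (mm10), as the deposited notes state, and the columns carry the names that RSEM uses. Versions of these tools and strandedness are not given in the sources used here. The deposited expected counts are estimates of reads per gene or transcript, in which shared reads are divided, and they are not normalized. The TPM values were made by the authors, per the file headers, and relate to all entries including spike-ins. The deposited isoform percentage is a transcript's percent of its gene's TPM. Posterior means and SDs of counts are also deposited.

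GENCODE M21, also on mm10, gave symbols, transcript types and exons. It held 226 of the 227 transcripts of the 35 genes, 209 of them with the same length. Because strandedness is unknown, the 15 genes that overlap a gene on the opposite strand and the 9 that overlap one on the same strand carry added uncertainty. The posterior SD was over 2% of the count for 1 gene, Car9.

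Levels, ratios between paralogs and transcript shares were described as mean ± SD over the 2 libraries. For library ratios, expected counts were divided by TMM factors from edgeR 4.0.16 in R 4.3.3. The rule was checked on simulated counts with counting error alone and changes larger than 25%. That check does not cover changes near 25% or the spread between pools. A gene was called different where a library exceeded the other by 25%, given a mean of 1 TPM and 50 counts in the libraries together, a rule of size with no test. The limit for a count of 0 was 3 counts. Reads had no molecular identifiers and so are not independent molecules, and the intervals and limits therefore hold counting error alone. DESeq2 1.42.0 gave alternative size factors.

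All 35 genes are named. Of the other pathway lists, the rule named the 3 highest detected genes and paralogs of the 35 below 1 TPM in both libraries. Ldhd was named with those paralogs. Eno3, the hypoxia targets below 1 TPM, Pdk3 and transcripts other than those of Pkm, Vegfa and Aldoc were named after their values were seen. The genes, lists and rules were chosen with earlier results of these data known. The level over protein-coding transcripts alone was added after seeing the data. Values of 2 genes of these lists are not reported here.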

Additional observations from a re-analysis of the deposited data

How the results depend on the processing

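The median library ratio of the listed genes and the 12 paralog ratios kept their direction under the alternatives run. The median library ratio over all genes changed sign with TPM, and the order of the lower Vegfa classes changed from posterior means. The median level of 27.7 TPM was 32.8 TPM when scaled to genes alone, and 27.8 to 30.6 TPM when each library was left out in turn, because the total or the library set changed. With a rule of 50% in place of 25%, 1 gene (Aldoc) differed between the libraries in place of 4, and the 4 genes were the same with DESeq2 size factors and with ratios of TPM. The 10 genes at 200 TPM or more all remained below 1 under both other scalings, and of the 17 enzymes 13 were below 1 with DESeq2 size factors and 14 with TPM. By TPM the log2 ratio of Eno2 was -0.12 in place of 0.23 and that of Pdk1 -0.05 in place of 0.05, both genes whose TPM rests partly on non-coding transcripts. The median log2 ratio over all genes was 0.01 with TMM, 0.00 with DESeq2 and -0.02 with TPM. The Vegfa share with exons 6 and 7 skipped, 69.1%, was 49.3% from posterior means, 76.0% of expected counts and 78.9% of protein-coding transcripts, and the cause was not tested. The M2 share of Pkm stayed between 95.7% and 96.2%. The number of detected genes was 27 at 5 TPM, 35 from posterior means and 33 over protein-coding transcripts. By counts not divided by length, 5 paralog ratios moved by over 1.5 times: Slc16a1 to Slc16a3 was 2.83 in place of 1.33, Slc2a1 to Slc2a3 2.59 in place of 3.91, Hk1 to Hk2 2.05 in place of 1.21, Pfkl to Pfkp 9.80 in place of 6.49, and Egln1 to Egln2 0.899 in place of 0.514. No paired analysis was possible because the labels give 1 group. Depth limits Vegfa, Adm, Aldoc, Eno2 and Car9, each with under 200 counts per library.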
